A study of Homo sapiens with 4 samples.

Results

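The aryl hydrocarbon receptor genes described here are 6 of the 58735 genes in the tables: the receptor AHR, its DNA-binding partner ARNT, the repressor AHRR, and CYP1B1, CYP1A1 and TIPARP, which are standard target genes. They were found by Ensembl gene identifier, all 6 were matched in GENCODE release 29, and they were chosen because CYP1B1 was known to be much higher with SD70 in these same libraries. For that reason the SD70 values are a description and carry no test. The RNA came from MOLM13, a leukaemia line of human monocytic origin that carries the MLL::AF9 fusion, held for 12 h in one of 4 conditions: SD70 alone, MI-503 alone, SD70 and MI-503 together (called the combination below), or DMSO, the vehicle. By published accounts SD70 inhibits KDM4C, which removes methyl groups from histone H3, and MI-503 is a menin inhibitor that keeps menin off MLL proteins. Each condition had 1 library, so no difference below has a replicate check and no p-value is given. All libraries come from 1 cell line, and the sources used here give no dose, no number of cultures and no amount of vehicle.

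AHR is a transcription factor that is switched on by small molecules, among them environmental aromatic compounds and products of tryptophan. Without a ligand it is held in the cytosol in a complex with HSP90 and the co-chaperone p23. With a ligand it moves to the nucleus, pairs with ARNT and binds DNA elements with the core GCGTG, and it raises genes such as CYP1A1, CYP1B1, AHRR and TIPARP. AHRR competes with AHR for ARNT, and TIPARP adds ADP-ribose to AHR, so both products restrain the receptor. In blood cells AHR is known for roles in stem and progenitor cells and in the fate of monocytes.

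The libraries held 14695753 reads for SD70, 15937390 for MI-503, 15093444 for the combination and 15550915 for DMSO, recovered from the deposited values as whole numbers. The share of reads in mitochondrial ribosomal RNA was 1.50% in SD70, 0.928% in MI-503, 1.43% in the combination and 0.853% in DMSO. Of 8 genes that mark a myelomonocytic leukaemia line, 7 had a mean of at least 1 FPKM (fragments per kilobase, with libraries scaled for size) over the 4 libraries, and CD68 was near 0 with 9 reads or fewer. Of the 7, PTPRC (27.7 FPKM in SD70 against 11.7 in DMSO) and CSF3R (60.7 FPKM in SD70 against 23.6 in DMSO) lay at least 2-fold above DMSO in SD70, as did 6.01% of the 12296 genes whose mean reached 1 FPKM. In the combination CSF3R and LYZ (329 FPKM in the combination against 151 in DMSO) did, as did 4.98% of those genes. MPO (6.64 FPKM in SD70 against 10.3 in DMSO) and FLT3 (41.6 FPKM in SD70 against 65.3 in DMSO) were lower in SD70. CD33, SPI1 and LYZ were higher in SD70 than in DMSO by less than 2-fold. Among 11 genes of other cell types, 5 were at 0 in every library (CD3E, MS4A1, HBB, PF4 and EPCAM), and PECAM1 and NKG7 were the 2 with a mean of at least 1 FPKM.

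Promoter sequences are shown for the receptor and for 3 targets, AHRR, TIPARP and CYP1A1. Of these, AHRR and TIPARP were higher in SD70 than in DMSO, and CYP1A1 had too few reads to tell. Each printed window holds the receptor's core motif, so the printed set does not show how common the motif is. The windows are those of RefSeq on GRCh38.p14, ending 50 bases after the annotated start, and 5 of the 6 genes had one (8 windows, with 2 for AHRR and 3 for TIPARP); CYP1B1 is not shown. Each is written 5′ to 3′ on the gene's own strand, with capitals for GCGTG or its reverse complement CACGC.
AHRR, chr5:321464-321763, plus strand: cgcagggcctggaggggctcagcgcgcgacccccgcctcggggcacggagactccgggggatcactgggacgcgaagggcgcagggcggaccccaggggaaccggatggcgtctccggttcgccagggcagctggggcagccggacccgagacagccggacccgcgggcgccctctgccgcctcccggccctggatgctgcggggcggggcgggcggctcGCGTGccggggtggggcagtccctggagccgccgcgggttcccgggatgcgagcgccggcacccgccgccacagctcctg
TIPARP, chr3:156674340-156674639, plus strand: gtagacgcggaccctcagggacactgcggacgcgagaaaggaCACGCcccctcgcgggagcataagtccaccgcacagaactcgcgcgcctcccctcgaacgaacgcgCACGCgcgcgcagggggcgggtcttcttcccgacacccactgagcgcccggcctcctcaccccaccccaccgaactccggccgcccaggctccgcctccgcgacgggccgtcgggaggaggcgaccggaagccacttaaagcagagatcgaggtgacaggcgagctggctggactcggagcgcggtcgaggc
CYP1A1, chr15:74725479-74725778, minus strand: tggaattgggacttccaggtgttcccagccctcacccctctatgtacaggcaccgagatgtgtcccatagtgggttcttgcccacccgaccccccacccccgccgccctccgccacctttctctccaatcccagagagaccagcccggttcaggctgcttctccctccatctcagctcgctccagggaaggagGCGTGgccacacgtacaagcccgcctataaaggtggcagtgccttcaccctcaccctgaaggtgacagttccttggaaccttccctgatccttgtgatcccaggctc
AHR, chr7:17298402-17298701, plus strand: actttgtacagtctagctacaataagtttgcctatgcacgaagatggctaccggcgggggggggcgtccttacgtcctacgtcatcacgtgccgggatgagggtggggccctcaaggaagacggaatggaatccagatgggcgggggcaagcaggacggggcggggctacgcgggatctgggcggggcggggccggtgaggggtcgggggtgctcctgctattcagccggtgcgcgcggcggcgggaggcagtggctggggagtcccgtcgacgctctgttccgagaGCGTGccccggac

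Counting positions from 1 at the 5′ end, the core GCGTG stood at position 221 in this AHRR window, where it was part of the longer form TNGCGTG, at position 194 in CYP1A1 and at position 288 in AHR. TIPARP held 2 matches on the other strand, at positions 43 and 109. The second AHRR window held 2 matches, and the window of ARNT and the other TIPARP windows held 0. On either strand, GCGTG occurred in 36.5% of the 35116 promoter windows in the table, and TNGCGTG, which contains it, in 5.51%. A match describes the letters in the window and does not show binding.

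The receptor itself was at nearly the same level in every library. AHR (ENSG00000106546, chromosome 7, 16916359 to 17346152 on GRCh38 in GENCODE 29, as for the genes below) was at 3.19 FPKM in SD70, 2.94 in MI-503, 3.14 in the combination and 3.34 in DMSO, from 399, 371, 393 and 408 reads in that order. The 4 counting intervals overlapped. The ratio of SD70 to DMSO was 0.955, with a 95% counting interval of 0.830 to 1.10, and those of MI-503 and of the combination to DMSO were 0.880 (0.763 to 1.02) and 0.941 (0.817 to 1.08). These intervals are exact for the reads of 2 libraries and cover counting error only. No difference in AHR was detectable at this depth, though one within these limits could be present. Of its 8081 exonic bases, AHR shares 2373 with another protein-coding gene on the same strand, which had 0 reads in every library. If reads there were left out, the level of AHR is understated in all 4 libraries.

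ARNT, which AHR and the hypoxia factors share as a partner, was higher with each agent. In bulk RNA, more cells with a transcript and more of it per cell cannot be told apart, here and below. ARNT (ENSG00000143437, chromosome 1, 150809705 to 150876768) stood at 13.4 FPKM in SD70, 10.7 in MI-503 and 14.0 in the combination, against 8.93 in DMSO. The ratio to DMSO was 1.50 (1.38 to 1.63) for SD70, 1.20 (1.10 to 1.31) for MI-503 and 1.57 (1.44 to 1.71) for the combination. The combination and SD70 alone could not be separated by counting (ratio 1.05, 0.972 to 1.13). On the log2(FPKM + 1) scale the fold of ARNT was 0.53 for SD70 against DMSO, and 16.0% of the 12296 genes whose 4-library mean reached 1 FPKM had a higher one.

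**Figure D1:**
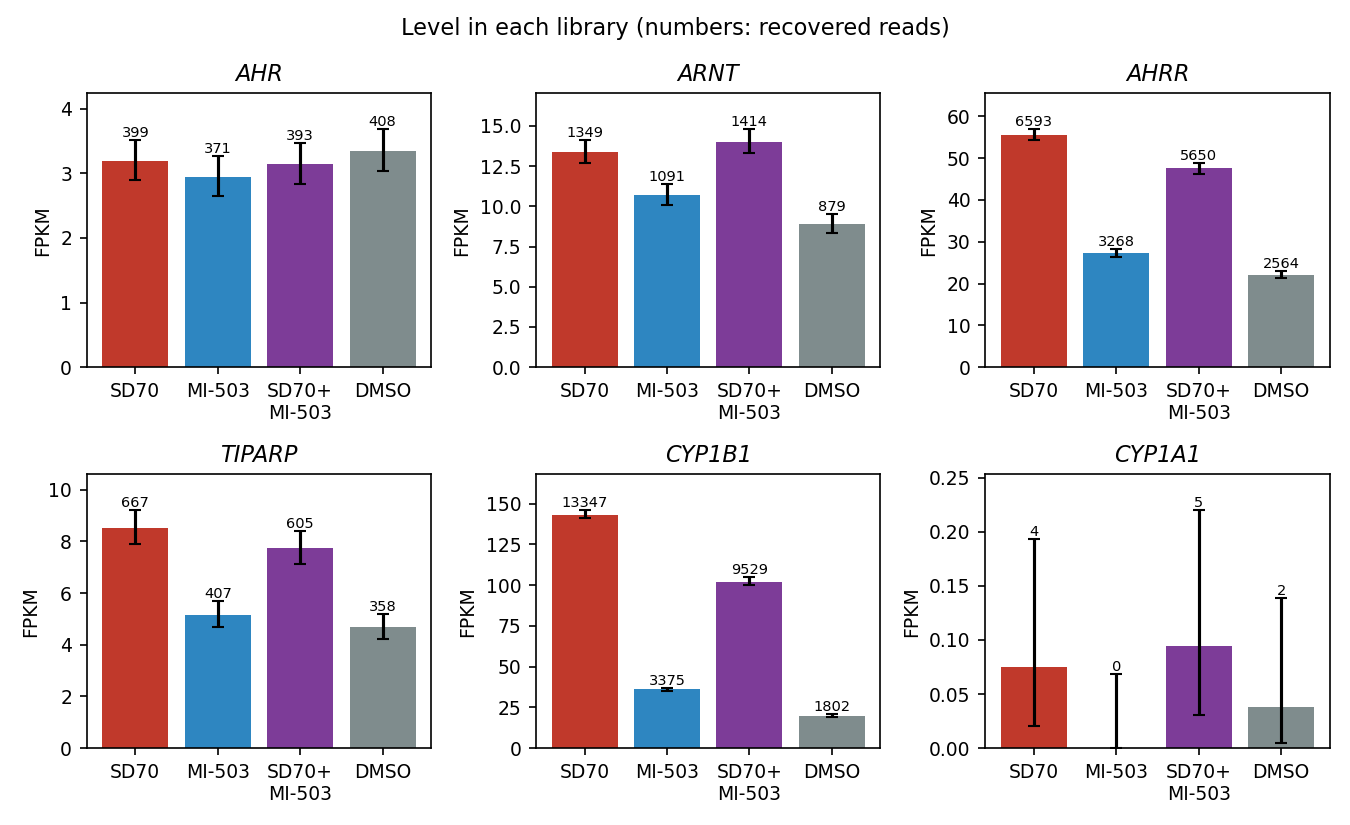
FPKM of the 6 genes (y axes start at 0 and differ between panels) in the SD70, MI-503, combination and DMSO libraries, with 95% counting intervals as error bars and recovered reads above the bars. AHR is level across the libraries, AHRR, TIPARP and CYP1B1 have the same order of libraries, and CYP1A1 has 5 reads or fewer.

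The repressor gene AHRR was higher in both libraries with SD70. AHRR (ENSG00000063438, chromosome 5, 304176 to 438291) was at 55.5 FPKM in SD70, 27.3 in MI-503, 47.6 in the combination and 22.1 in DMSO, or 6593, 3268, 5650 and 2564 reads. It was 2.51-fold (2.40 to 2.63) higher in SD70 than in DMSO and 1.74-fold (1.67 to 1.82) higher in the combination than in MI-503. MI-503 alone was 1.23-fold (1.17 to 1.30) above DMSO, whereas the combination lay below SD70, at a ratio of 0.857 (0.827 to 0.888). AHRR overlaps the neighbouring gene PDCD6 on the same strand over 244 exonic bases, so reads there could be assigned to either. PDCD6 was lower where AHRR was higher, at 7.78 FPKM in SD70 against 11.5 in DMSO.

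TIPARP, an ADP-ribosyltransferase gene, was higher with SD70 by a smaller margin. TIPARP (ENSG00000163659, chromosome 3, 156673235 to 156706770) had 8.54 FPKM in SD70, 5.17 in MI-503, 7.75 in the combination and 4.69 in DMSO, from 667, 407, 605 and 358 reads. The 2 libraries with SD70 lay above the other 2. The ratio was 1.82 (1.60 to 2.07) for SD70 against DMSO and 1.50 (1.32 to 1.71) for the combination against MI-503. MI-503 and DMSO were not separated by counting (1.10, 0.952 to 1.27), nor were the combination and SD70 (0.907, 0.811 to 1.01). TIPARP did not reach a 2-fold difference in any of the 5 comparisons.

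CYP1B1 was the most abundant of the 6 genes in the libraries with an agent, and it was 7.23-fold (6.89 to 7.60) higher in SD70 than in DMSO. It encodes a cytochrome P450 that oxidises oestrogens and polycyclic aromatic compounds, and it is known to be expressed in blood monocytes. CYP1B1 (ENSG00000138061, chromosome 2, 38066973 to 38109902) was at 143 FPKM in SD70, 36.0 in MI-503, 102 in the combination and 19.8 in DMSO, from 13347, 3375, 9529 and 1802 reads. No 2 of these counting intervals overlapped. Ranked by FPKM among the 12296 genes, CYP1B1 was number 169 in SD70, 1121 in MI-503, 245 in the combination and 2391 in DMSO. On the log2(FPKM + 1) scale its fold was 2.79 for SD70 against DMSO, and 0.138% of the genes had a higher one. The combination was 5.17-fold (4.91 to 5.44) above DMSO and 2.85-fold (2.74 to 2.96) above MI-503, and MI-503 was 1.81-fold (1.71 to 1.92) above DMSO.

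CYP1A1, the target most often used to read out the receptor, was close to 0 throughout. CYP1A1 (ENSG00000140465, chromosome 15, 74719542 to 74725610) had 4 reads in SD70, 0 in MI-503, 5 in the combination and 2 in DMSO. Taking 3 reads as the limit that a count of 0 allows, the level in MI-503 was at most 0.0560 FPKM (the exact 2-sided interval drawn in the plot of levels reaches 0.0688), and the highest level, in the combination, was 0.0941 FPKM. The ratio of SD70 to DMSO was 1.95 with an interval of 0.280 to 21.6, so neither a difference nor its absence can be read from these counts. CYP1A2, its neighbour on chromosome 15 and another classical target, was listed at 0 in all 4 libraries.

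With 5 of the 6 genes above the minimum, 2 (CYP1B1 and AHRR) passed a 2-fold difference upwards in SD70 against DMSO and 0 did so downwards. Across all 12296 genes, 12.4% differed at least 2-fold in that comparison, 6.01% higher and 6.37% lower. As the set was chosen for CYP1B1 in SD70, nothing is read from this. With the libraries scaled to the same FPKM total, the higher share among those differing was 59.9% in place of 48.6%. For MI-503 against DMSO, 0 of the 5 passed 2-fold, against 2.16% of all genes (1.18% higher and 0.984% lower). For the combination against DMSO the same 2 genes did, against 8.73% of all genes (4.98% higher and 3.76% lower), and for the combination against MI-503 CYP1B1 alone did, against 4.38% (2.74% higher and 1.64% lower). For the combination against SD70 0 of 5 passed, against 1.80% (0.846% higher and 0.952% lower). The median log2 fold of the 5 genes was 0.74 for SD70 against DMSO, 0.24 for MI-503 against DMSO, 0.62 for the combination against DMSO, 0.50 for the combination against MI-503 and -0.13 for the combination against SD70. Over all genes these medians were -0.07, -0.03, -0.06, -0.04 and 0.01 in the same order. The first 3 comparisons share the DMSO library.

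**Figure D2:**
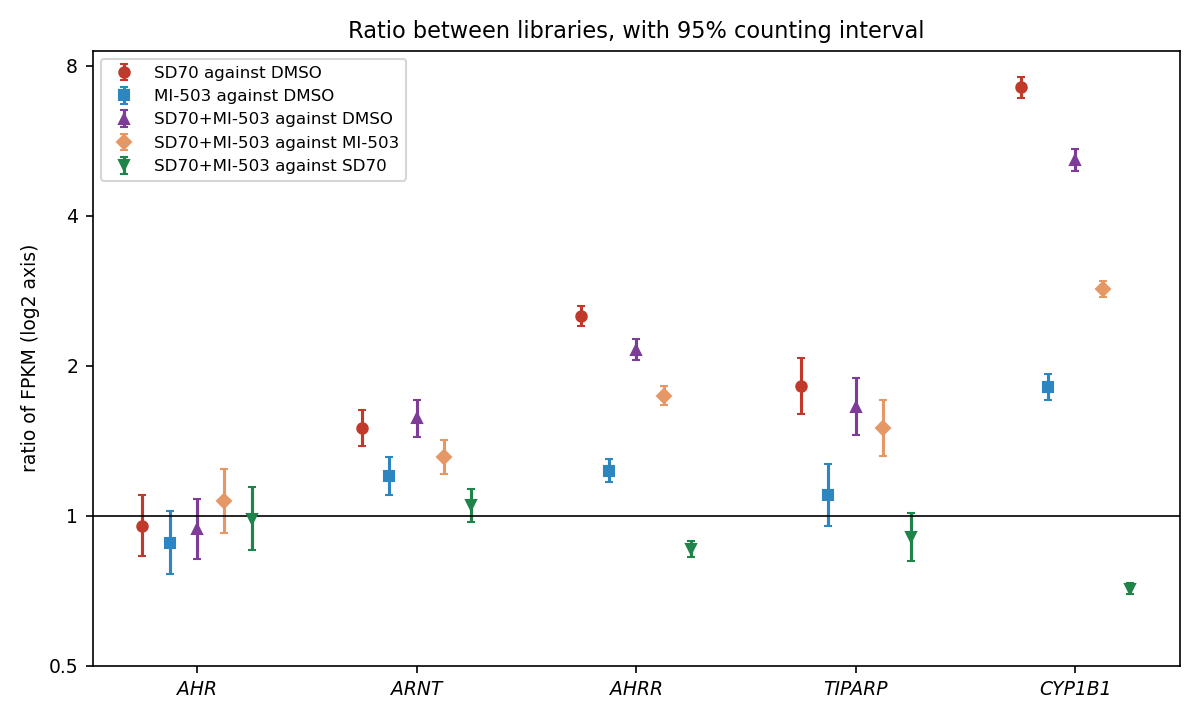
Ratio of FPKM between libraries (log2 axis) for the 5 genes whose mean reached 1 FPKM, in 5 comparisons, with 95% counting intervals. The intervals of AHR hold 1, and for CYP1B1 and AHRR the combination lies above DMSO and MI-503 but below SD70.

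The libraries fell in the same order for CYP1B1, AHRR and TIPARP, with SD70 highest, then the combination, MI-503 and DMSO. That order held for 14.8% of the 12296 genes, and AHR and ARNT did not follow it. The order takes no account of counting error. For TIPARP the ratios of MI-503 to DMSO and of the combination to SD70 had intervals that held 1. MI-503 went with higher CYP1B1 in the absence of SD70 and with lower CYP1B1 in its presence, where the ratio of the combination to SD70 was 0.714 (0.696 to 0.733). AHRR had the same pair of directions. Counting intervals clear of 1 in both of these directions were found for 4.95% of the 12296 genes, and for 2 of the 5 described here. Genes with few reads have wider intervals, so this share depends on depth. CYP1B1 and AHRR had 1802 reads or more in each library. MI-503 against DMSO and the combination against SD70 have no library in common. The genes were chosen on SD70 and DMSO, however, and SD70 is the divisor of the second ratio and DMSO that of the first, so neither ratio is independent of the choice.

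The ratio for MI-503 in the presence of SD70, divided by the ratio in its absence, was 0.394 for CYP1B1, 0.695 for AHRR, 0.824 for TIPARP, 0.873 for ARNT and 1.12 for AHR. A value of 1 would mean that the combination equals the product of the single-agent ratios. In log2 units the departure of CYP1B1 was -1.34, with a counting interval of -1.43 to -1.25, and 2.74% of genes lay lower. The median over 12106 genes with reads in every library was 0.05. Among the 662 of these that were at least 2-fold higher in SD70 than in DMSO it was -0.91, and 29.9% of them lay below CYP1B1 (77.6% lay below AHRR). The choice of those genes and their departure share the SD70 and DMSO libraries.

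**Figure D3:**
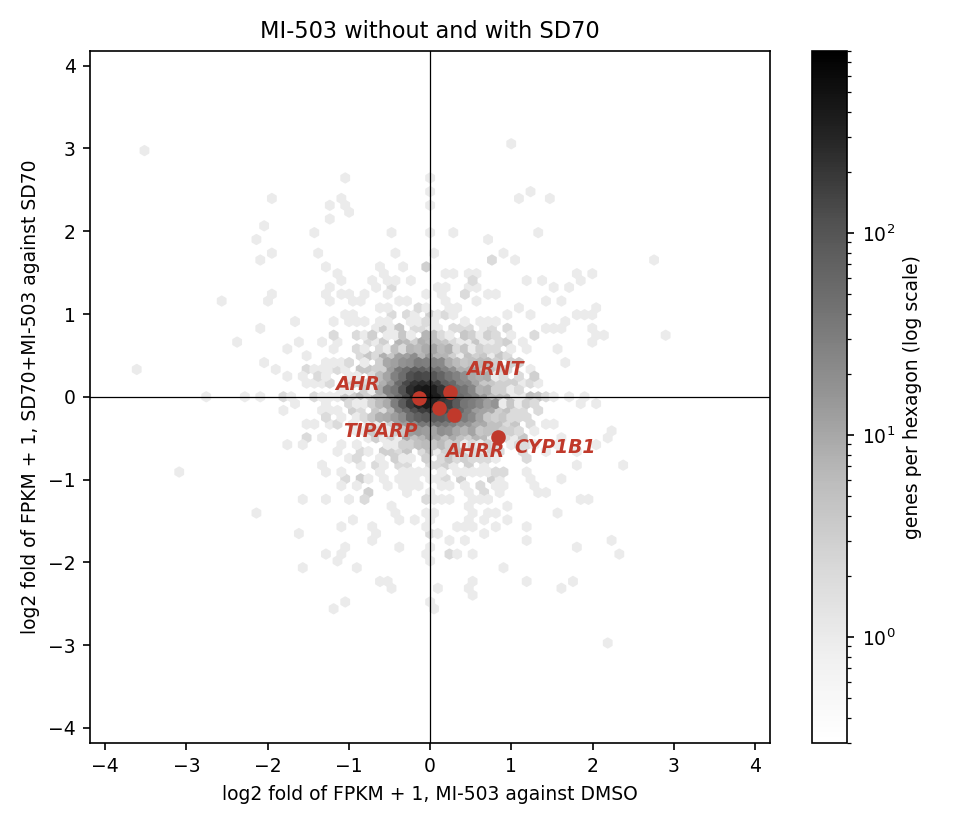
Log2 fold of FPKM + 1 for MI-503 against DMSO (x axis) and for the combination against SD70 (y axis), with 12296 genes as grey hexagons (darker for more genes, log scale) and the 5 genes in red. CYP1B1 lies at 0.83 and -0.48 and AHRR at 0.29 and -0.22, to the right of and below 0.

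CYP1B1 was also high among cytochrome P450 genes. Of 55 protein-coding P450 genes, 8 had a mean of at least 1 FPKM and 20 were at 0 in every library. CYP1B1 made up 84.8% of the summed FPKM of these genes in SD70, 65.6% in MI-503, 78.2% in the combination and 54.1% in DMSO. The next by mean level were CYP20A1, the vitamin D 25-hydroxylase CYP2R1, CYP2S1 and the fatty acid hydroxylase CYP4V2. CYP20A1 was at 5.33 FPKM in SD70 against 5.27 in DMSO. CYP2R1 was at 4.21 FPKM in SD70, 4.07 in MI-503, 5.60 in the combination and 4.04 in DMSO. CYP4V2 was 1.61-fold (1.39 to 1.86) higher in SD70 than in DMSO. POR, the reductase that passes electrons to microsomal P450 enzymes, was at 15.2 FPKM in SD70, 11.0 in MI-503, 13.9 in the combination and 9.81 in DMSO. EPHX1, the microsomal epoxide hydrolase, was at 13.4 FPKM in SD70 against 11.3 in DMSO, while CYB5R3, a cytochrome b5 reductase, was lower, at 12.8 FPKM in SD70 against 18.2 in DMSO. CYB5A was under the minimum.

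Around CYP1B1 on chromosome 2, the antisense gene CYP1B1-AS1 followed the same order, with 66 reads in SD70, 26 in MI-503, 52 in the combination and 16 in DMSO. It shares 678 exonic bases with CYP1B1, and without a stated strand setting reads of the pair cannot be told apart. RMDN2, which overlaps CYP1B1 on the opposite strand by 96 exonic bases, had 48 reads in SD70, 58 in MI-503, 56 in the combination and 56 in DMSO. RMDN2-AS1, TIPARP-AS1 and the antisense gene over AHR had 16 reads or fewer in each library.

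HSP90 and p23 genes, whose products hold AHR in the cytosol, were lower with SD70. Of the 3 genes listed, 2 were at least 2-fold lower in SD70 than in DMSO, against 6.37% of all genes. HSP90AA1, the inducible HSP90, was at 143 FPKM in SD70, 318 in MI-503, 158 in the combination and 459 in DMSO, a ratio of 0.311 (0.304 to 0.317) for SD70 against DMSO. PTGES3, which encodes p23, was at 76.9 FPKM in SD70, 130 in MI-503, 83.3 in the combination and 160 in DMSO. HSP90AB1, the constitutive HSP90, was at 768 FPKM in SD70 against 1214 in DMSO. In the combination HSP90AA1 alone was at least 2-fold lower than in DMSO, against 3.76% of all genes, and in MI-503 none of the 3 was, against 0.984%. Reads of the HSP90 and p23 genes may be shared with processed copies elsewhere in the genome.

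Among 6 relatives of the receptor and its partner, ARNT2 was at 0 in every library, so ARNT was the ARNT gene with reads. HIF1A, the hypoxia factor that also pairs with ARNT, lay between 9.83 FPKM in the combination and 11.8 in DMSO. The clock genes BMAL1 and CLOCK lay between 1.64 and 2.34 FPKM. None of the 3 that reached the minimum differed at least 2-fold. Of 5 coactivator genes, 4 were above the minimum and NCOA3 alone was at least 2-fold higher in SD70 (16.2 FPKM in SD70, 8.28 in MI-503, 13.2 in the combination and 6.77 in DMSO), against 6.01% of all genes. The others were higher in SD70 than in DMSO by less, at ratios of 1.45 (1.37 to 1.53) for CREBBP and 1.43 (1.35 to 1.51) for NCOA2. EP300 was at 19.3 FPKM in SD70 against 17.9 in DMSO.

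Other genes described as targets of the receptor in other human cells were mostly under the minimum here. Of 20 listed, 6 had a mean of at least 1 FPKM, 0 of these lay above DMSO by 2-fold in SD70 and 2 lay below it by that much, against 6.01% and 6.37% of all genes. The median log2 fold was -0.20, against -0.07 over all genes. NQO1, the quinone reductase, was at 5.03 FPKM in SD70, 4.37 in MI-503, 3.74 in the combination and 3.42 in DMSO, a ratio of 1.47 (1.21 to 1.80) for SD70 against DMSO. CYP2S1 was at 3.55 FPKM in SD70, 3.48 in MI-503, 3.78 in the combination and 2.21 in DMSO. The 2 lower genes were SLC7A5, an amino-acid carrier (53.8 FPKM in SD70 against 132 in DMSO), and MYC (83.2 FPKM in SD70 against 181 in DMSO). For MI-503 and for the combination against DMSO, 0 of the 6 differed at least 2-fold. UGT1A1, CYP1A2 and ABCG2 were at 0 in every library. Some listed targets under the minimum were higher in SD70 than in DMSO with intervals clear of 1, at ratios of 4.85 (3.30 to 7.33) for PRDM1, 5.08 (1.92 to 16.9) for IL1B and 12.7 (1.91 to 540) for SERPINB2. In DMSO these 3 had 32, 5 and 1 reads. No other listed target under the minimum had an interval clear of 1 in that comparison. SERPINB2 had 13 reads in SD70 and 23 in MI-503, where its ratio to DMSO was 22.3 (3.62 to 917). Many of these genes answer to other factors too, and the list was not drawn up for myeloid cells.

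Of 10 genes of tryptophan breakdown, a source of ligands of the receptor, 4 were above the minimum. Among these, 1, IL4I1, passed a 2-fold difference in SD70 against DMSO, as did 12.4% of all genes. IL4I1 passed the minimum only through the 2 libraries with SD70, so its place among the 4 and its difference are not separate facts. It encodes a secreted amino-acid oxidase of myeloid cells whose products can activate AHR. IL4I1 was at 6.94 FPKM in SD70, 0.575 in MI-503, 7.06 in the combination and 0.284 in DMSO, from 275, 23, 280 and 11 reads. The ratio was 24.4 (13.4 to 49.5) for SD70 against DMSO and 12.3 (8.02 to 19.7) for the combination against MI-503, and the combination did not separate from SD70 (1.02, 0.859 to 1.21). IL4I1 overlaps NUP62 on the same strand over 336 exonic bases, and NUP62 had 2452 reads in SD70 against 3464 in DMSO. IDO1, which starts the kynurenine route, had 2 reads in the combination and 0 in the other libraries, and TDO2 had 1 read in all and IDO2 had 0. AFMID was at 7.11 FPKM in SD70 against 10.1 in DMSO.

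**Figure D4:**
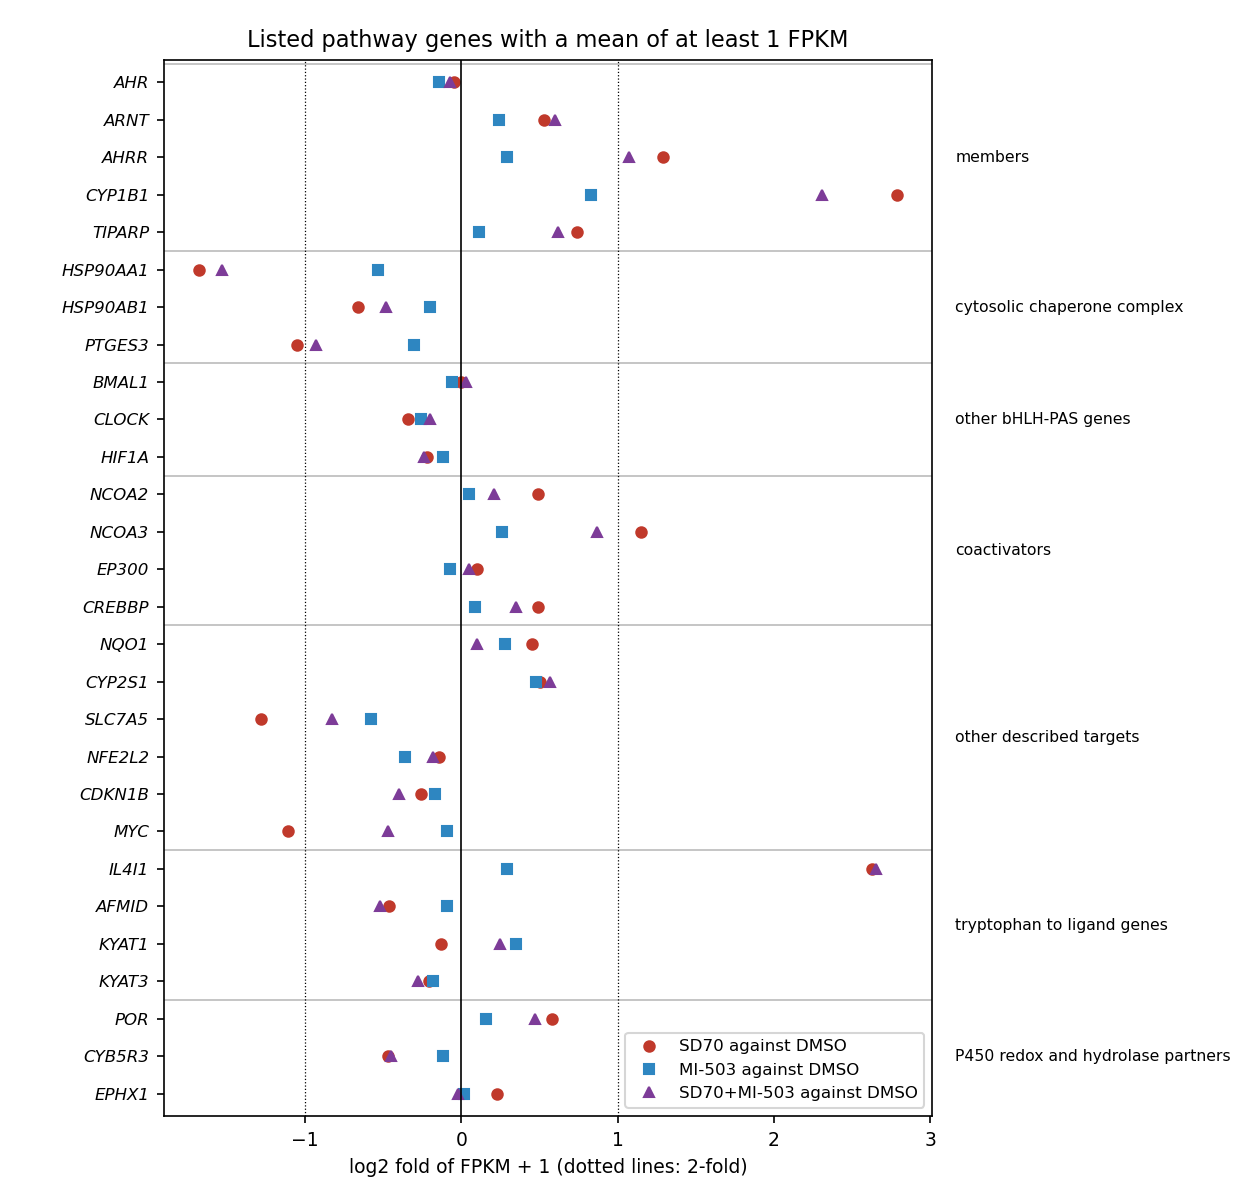
Log2 fold of FPKM + 1 against DMSO for the listed pathway genes whose mean reached 1 FPKM, grouped by list (the set described here first), with SD70 as circles, MI-503 as squares and the combination as triangles. CYP1B1 and IL4I1 are the farthest to the right, at 2.79 and 2.63 for SD70, and HSP90AA1 is the farthest to the left, at -1.68.

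Markers of mature myeloid cells had their libraries in the same order as CYP1B1 when summed. Of 8 such markers, 4 were above the minimum (ITGAX, ITGAM, CSF1R and CD86), and all 4 were at least 2-fold higher in SD70 and in the combination than in DMSO, as were ITGAX and CSF1R in MI-503. Of all genes, 6.01% were that much higher in SD70, 4.98% in the combination and 1.18% in MI-503. Each of the 4 was above 1 FPKM in DMSO too, its lowest library, from 1.23 FPKM for CD86 to 3.39 for CSF1R. The summed level of the 8 was 64.2 FPKM in SD70, 24.2 in MI-503, 53.3 in the combination and 9.58 in DMSO, while CD14, FCGR3A, CD163 and MRC1 had 10 reads or fewer in each library. The 11 genes of other cell types summed to 84.6 FPKM in SD70, 48.1 in MI-503, 76.3 in the combination and 27.7 in DMSO, nearly all from NKG7 and PECAM1. The part of these genes, and of the mitochondrial RNA share given above, in the levels of CYP1B1 and AHRR was not tested.

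The protein-coding genes with the profile closest to that of CYP1B1, by Euclidean distance between centred log2(FPKM + 1) values over the 4 libraries, were BMF, DPEP2, SEMA6B, H2BC5 and BCL2A1, with distances of 0.08, 0.14, 0.17, 0.18 and 0.18 among 9891 genes. BMF, a pro-apoptotic BCL2 family gene, was at 27.1 FPKM in SD70, 6.68 in MI-503, 19.4 in the combination and 3.07 in DMSO. For AHRR they were BIN2, SLFN5 and SKIL, for TIPARP they were CTSS, HLX and SMPD1, and for AHR they were LPIN2, TBC1D15 and SEC31A, all at distances of 0.05 or less. BIN2, a membrane-shaping protein of blood cells, was close to AHRR in level as well, at 53.5 FPKM in SD70, 27.2 in MI-503, 46.8 in the combination and 22.0 in DMSO. Such likeness rests on 4 values per gene, and the added 1 FPKM lets low genes with larger ratios lie close. BCL2A1 was at 6.65 FPKM in SD70 against 0.243 in DMSO, and SLFN5 was at 1.93 FPKM in SD70 against 0.210 in DMSO.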

How the data were processed

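RNA was measured by sequencing in 4 MOLM13 libraries, 1 per treatment, grouped by the treatment label. Per the labels' protocols, RNA was extracted with Trizol for Illumina libraries. The submitters' processing notes name hg38, BWA and Bowtie, with neither versions nor roles. The authors deposited 1 value per Ensembl identifier, read here as FPKM from the values, since the header names no unit. All 58735 identifiers were in GENCODE 29, and FPKM multiplied by union-exon length gave whole reads within 0.01 for 100% of values above 0. The library sizes implied were those of median-of-ratios size factors (0.000% apart). The sources used here give neither the counter nor its strand setting.

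Folds used log2(FPKM + 1), which understates changes of low genes, over the 12296 genes whose mean reached 1 FPKM, and 2-fold was the threshold. With 1 library per group no test was run. Ratios without pseudocount have exact 95% Clopper-Pearson intervals on recovered reads; they cover counting error only, since PCR copies are not separate molecules. Functions were tested on simulated data. The genes and lists were chosen with earlier results of these data known. Named genes were the 6, listed genes past 2-fold (every gene in lists of 4), overlapping genes, the 5 highest P450 genes and the closest profiles; other listed genes were chosen after their values were seen. Some listed genes are not reported here. Alternatives were pseudocounts of 0.1 and 5, other minimum means and equal FPKM totals. Python 3.11.15, pandas 2.3.3 and scipy 1.17.1 were used.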

Additional observations from a re-analysis of the deposited data

Results flagged for a closer look

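For 2 genes the difference with MI-503 ran in opposite directions without and with SD70, with counting intervals clear of 1 on both sides, as for 4.95% of the 12296 genes. That share depends on read depth, since few reads give wide intervals. The 2 genes were chosen on the SD70 and DMSO libraries, which are the divisors of these ratios. CYP1B1 was at a ratio of 1.81 for MI-503 against DMSO and of 0.714 for the combination against SD70. AHRR was at 1.23 for MI-503 against DMSO and at 0.857 for the combination against SD70. With 1 library per condition the difference between these effects was not tested, and counting error is the only error the intervals cover.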

How the results depend on the processing

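No paired analysis was possible because each group has 1 library and the labels give no replicate number; for the same reason no library could be left out. The numbers of genes at least 2-fold different were 1522 for SD70 against DMSO, 266 for MI-503 against DMSO, 1074 for the combination against DMSO, 539 for the combination against MI-503 and 221 for the combination against SD70. In that order they were 2322, 624, 1805, 973 and 413 with a pseudocount of 0.1, and 462, 20, 266, 79 and 14 with 5. At a mean of at least 5 FPKM they were 886, 52, 572, 207 and 17. With no filter they were 527 for MI-503 against DMSO, 878 for the combination against MI-503 and 562 for the combination against SD70. Equal FPKM totals kept all 5 within 1.5 times. With a pseudocount of 5 the log2 fold of CYP1B1 was 2.58 in SD70 against DMSO, 0.72 in MI-503 against DMSO, 2.11 in the combination against DMSO and 1.39 in the combination against MI-503. At equal totals it was 2.90 in SD70 against DMSO, 1.57 in the combination against MI-503 and -0.53 in the combination against SD70. Its departure from the product of single-agent ratios was -1.19 with a pseudocount of 5 (log2), an alternative chosen after seeing the data. The genes described at least 2-fold higher in the combination than in DMSO went down to 1 there, as AHRR was at 0.96. The direction of a fold changed for AHR in SD70 against DMSO alone (-0.06 to 0.03 over the settings), at equal totals. Fewer low genes pass a fold with a larger pseudocount by construction. Depth limits CYP1A1, with 5 reads or fewer.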

Other observations

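Some P450 and target genes near the lower limit also differed between libraries; they were named after their values were seen. CYP27A1, which hydroxylates sterols, was at 2.62 FPKM in SD70, 0.451 in MI-503, 3.62 in the combination and 0.266 in DMSO, so the combination was the higher of the 2 libraries with SD70, unlike for CYP1B1. CYP51A1, the lanosterol demethylase, was likewise at 2.71 FPKM in SD70, 1.48 in MI-503, 3.86 in the combination and 1.24 in DMSO. CYP2D6, whose count is uncertain because of near-identical pseudogenes, was at 1.88 FPKM in SD70, 0.918 in MI-503, 1.56 in the combination and 0.325 in DMSO. CYP27A1 and CYP2D6 passed the minimum only through the 2 libraries with SD70, and each had 12 reads in DMSO.

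Below the minimum, PRDM1, which encodes a transcriptional repressor, had 159 reads in SD70, 52 in MI-503, 122 in the combination and 32 in DMSO. EPAS1, the hypoxia factor HIF-2 alpha, had 101 reads in SD70, 26 in MI-503, 82 in the combination and 6 in DMSO. STC2, a secreted glycoprotein gene, had 81 reads in SD70, 12 in MI-503, 155 in the combination and 75 in DMSO, so MI-503 alone was the low library.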
